A study of Homo sapiens with 2 samples.

Results

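The genes described are the forkhead factors FOXO1, FOXO3 and FOXO4 and 7 genes known as their targets or as parts of the insulin pathway: INSR, IRS2, PIK3IP1, BCL6, KLF2, CITED2 and TXNIP. They were taken by gene symbol from the array's platform annotation, and cell cycle inhibitors controlled by FOXO factors were left out. All 10 were measured, each by 1 probe set with a single symbol, and all 10 passed the floor of 6 on the log2 scale, as did 13471 of the 18417 genes of the array. FOXO3 also had 1 probe set shared with its near-identical copy FOXO3B.

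The cells were K562, an established human line of chronic myeloid leukaemia driven by the BCR-ABL fusion kinase, with an inducible short hairpin RNA against the Polycomb gene BMI1. One culture was incubated with doxycycline for 96 h, which induces the hairpin, and the control culture carried the same hairpin and received no doxycycline. Each group held 1 sample and 1 array, so the spread between replicates is unknown and no p-value was computed. RNA integrity numbers were 10 in each case, with 0.3 µg of input per array. There were 0 samples with doxycycline but no hairpin, so effects of the drug and of BMI1 silencing cannot be told apart, and how long the control was incubated is not stated. The labels do not say whether the cells were 1 clone.

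FOXO factors are transcription factors held in check by insulin and growth factor signalling. When phosphatidylinositol 3-kinase (PI3K) is active, the kinase AKT phosphorylates them and they leave the nucleus. When the pathway is quiet, they enter the nucleus and switch on genes of metabolism and stress resistance. These include INSR and IRS2, which restore sensitivity to insulin. In BCR-ABL leukaemia the fusion kinase keeps this pathway active. Control is thus exerted largely on the protein, and an expression array reports only the transcripts.

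RMA values on the log2 scale covered 33297 probe sets, whose median was 6.77 with doxycycline and 6.78 without. The probe set annotated to BMI1 and its read-through transcript stood at 10.00 with doxycycline and 10.84 without, differing by -0.84. All 9 erythroid markers of K562 that were measured passed the floor, at 7.30 to 13.03 with doxycycline and 7.39 to 13.34 without. Of the 9, 8 were lower with doxycycline (median difference -0.18), against 48.8% of all genes past the floor (median 0.00177). ALAS2 was higher (0.22). Of the markers of other cells, 1 of 5 T cell, 3 of 4 B cell, 4 of 4 monocyte and granulocyte and 4 of 6 fibroblast genes passed the floor. Their levels lay between 3.30 and 8.999 with doxycycline and between 3.12 and 8.72 without. In RNA of a whole culture, fewer cells of a type and less RNA per cell cannot be told apart. Whether the lower erythroid markers bear on the genes described here was not tested.

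Promoter sequences are shown for 2 of the genes, BCL6 because it differed most and TXNIP because its promoter held matches to 2 of the motifs searched. They were taken from RefSeq on GRCh38.p14, where all 10 genes matched, with 18 annotated starts among them. Windows ran from 250 bases before to 50 bases after each start. Capitals in the TXNIP sequence (chr1:145996640-145996714, minus strand) mark the FOXO motif and then the carbohydrate response element, which is bound by the glucose-sensing factors MondoA and ChREBP. Capitals in the BCL6 sequence (chr3:187745464-187745528, minus strand), which runs to base 5 of the transcript, mark the STAT motif.
TXNIP: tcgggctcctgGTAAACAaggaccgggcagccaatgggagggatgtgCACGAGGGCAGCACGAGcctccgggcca
BCL6: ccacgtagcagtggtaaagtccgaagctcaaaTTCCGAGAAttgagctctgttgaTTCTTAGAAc

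The FOXO motif searched was GTAAACA on both strands, and 3.42% of the 35116 promoter windows in the table held it. Of the 18 windows of the 10 genes, 3 held it, each in a different gene. It began at base -124 relative to the start in TXNIP, whereas in FOXO4 and PIK3IP1 it lay within the transcript, from base 24 and from base 17. The carbohydrate response element was searched as CACGNG followed after 5 bases by CNCGNG, on both strands, and 0.501% of windows held it. TXNIP alone among the 10 genes had it, from base -88 to base -72. The STAT motif was TTCNNNGAA, which reads the same on both strands and occurred in 7.66% of windows. BCL6 was the 1 gene of the 10 with matches, which began at base -28, base -5, base 11 and base 37 relative to the start. The window of that start also held the ATF4 and C/EBP motif TGATGCAA, searched on both strands and found in 0.866% of windows, at base 24. A match describes these letters only and shows no binding.

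The transcripts of all 3 FOXO factors were close to equal in both cultures. FOXO1, the main insulin-responsive member in liver and a factor of B cell development, had a log2 value of 8.23 with doxycycline and 8.31 without, differing by -0.08. FOXO3, known for the control of oxidative stress in red cell precursors and for the upkeep of blood stem cells, had 6.96 with doxycycline and 7.02 without at its own probe set, differing by -0.06. FOXO4, the X-linked member, had 8.97 with doxycycline and 9.02 without, differing by -0.05. As a measure of how widely genes of like brightness differed between the arrays, a robust SD (from the median absolute deviation) was taken over the 500 genes nearest in mean level. It was 0.15 for FOXO1, 0.15 for FOXO3 and 0.14 for FOXO4, so each factor lay within 1 such SD of 0.

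The direction for FOXO3 was not settled. The probe set shared by FOXO3 and FOXO3B stood at 9.53 with doxycycline and 9.43 without, differing by 0.10, opposite in sign to the probe set of FOXO3 alone. Signal of the copy and of FOXO3 cannot be separated there. Of the 420 genes with exactly 2 single-symbol probe sets past the floor, 111 (26.4%) had differences of opposite sign, and the median gap between the 2 differences was 0.07.

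**Figure D1:**
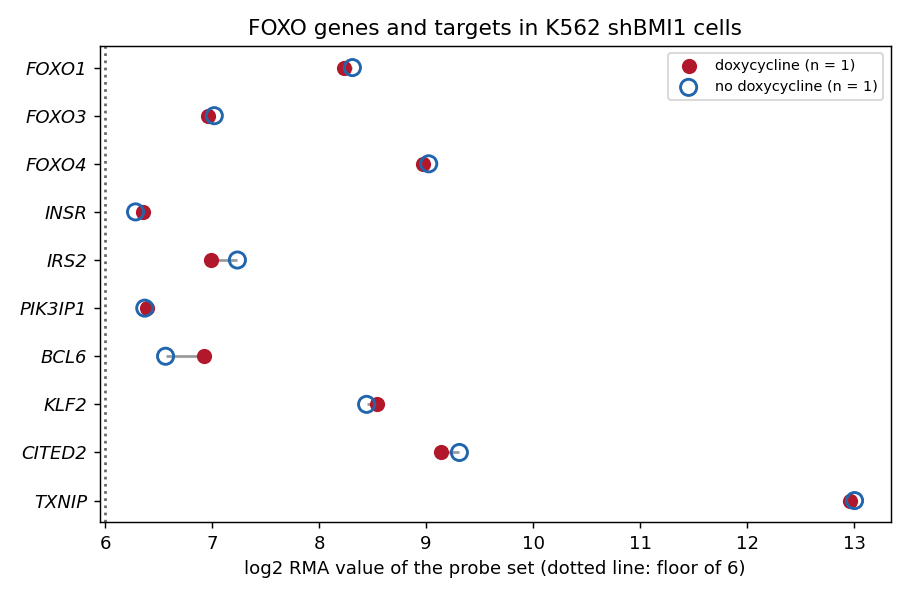
Log2 RMA value (horizontal axis) of the probe set of each of the 10 genes in the doxycycline sample (filled circles) and in the sample without doxycycline (open circles), on 1 array each. The circles nearly coincide for the 3 FOXO factors, INSR, PIK3IP1 and TXNIP and are farthest apart for BCL6, at 6.92 with doxycycline and 6.57 without. Positions of different genes are not comparable, since probe sets differ in brightness.

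BCL6 differed most of the 10 genes and was higher with doxycycline. It encodes a transcriptional repressor of germinal centre B cells. In BCR-ABL leukaemia cells it is known to be held low by STAT5 and to be induced by FOXO factors when the kinase is inhibited. Its log2 value was 6.92 with doxycycline and 6.57 without, differing by 0.36 or 1.28-fold. That was 2.05 times the robust SD of 0.17 among genes of similar level, and 345 of the 13471 genes had a larger positive difference. Both values were within 1 log2 unit of the floor. Detection calls were not used, so whether BCL6 was expressed in either culture is not shown.

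The other regulators of transcription differed less and in opposite directions. KLF2, a zinc finger factor that keeps T cells quiescent and protects vessel walls, had 8.54 with doxycycline and 8.44 without, differing by 0.10. CITED2, which competes with HIF1A for the coactivators p300 and CBP and is needed for blood stem cell upkeep, was lower with doxycycline, at 9.14 against 9.31 without, differing by -0.17 or 1.13-fold. The robust SD at their levels was 0.15 for KLF2 and 0.14 for CITED2. KLF2 thus lay within 1 robust SD of 0 and CITED2 at 1.27 robust SDs below it.

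Among the insulin signalling genes, IRS2 was lower with doxycycline and the receptor nearly equal. IRS2, the docking protein that links the receptor to PI3K, had 6.99 with doxycycline and 7.24 without, differing by -0.24 or 1.18-fold. This was 1.56 robust SDs below 0, and 673 of the 13471 genes had a more negative difference. INSR, the insulin receptor, had 6.35 with doxycycline and 6.28 without, differing by 0.07. PIK3IP1, a membrane protein that binds PI3K and lowers its activity, had 6.39 with doxycycline and 6.37 without, differing by 0.02. INSR and PIK3IP1 lay close to the floor, where the robust SD was 0.19 for both.

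TXNIP, which inhibits thioredoxin, restrains glucose uptake and is a target of both FOXO factors and MondoA, was close to equal in both cultures. It had 12.96 with doxycycline and 13.00 without, differing by -0.04 or 1.03-fold, where the robust SD was 0.10. This is the gene whose promoter holds both motifs in capitals above.

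**Figure D2:**
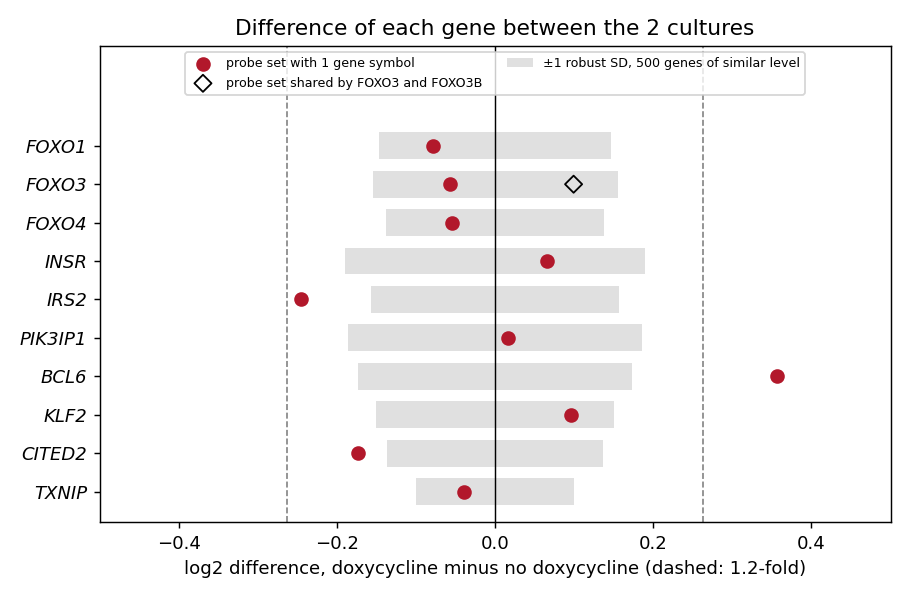
Log2 difference, doxycycline minus no doxycycline (horizontal axis), of each of the 10 genes (filled circles) and of the probe set shared by FOXO3 and FOXO3B (diamond); grey bars are 1 robust SD to each side of 0 over 500 genes of similar level and dashed lines mark 1.2-fold. BCL6 at 0.36, IRS2 at -0.24 and CITED2 at -0.17 lie outside the bars, and BCL6 alone passes a dashed line. The share of all genes outside such bars was not counted, so lying outside does not set a gene apart.

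Over the 10 genes, 4 were higher with doxycycline (BCL6, KLF2, INSR and PIK3IP1) and 6 lower, with a median difference of -0.05. Among all 13471 genes 50.3% were higher and 48.8% lower, with a median of 0.00177. At least 1.2-fold higher was 1 of the 10, BCL6, against 6.04% of all genes. At least 1.2-fold lower were 0 of the 10, against 4.05% of all genes. At 1.5-fold there were 0 of the 10 in either direction, against 0.364% of all genes higher and 0.111% lower. These shares were near those of all genes, and with 10 genes a single gene moves a share by a large step. With a floor of 7 BCL6 was left out, and the count at 1.2-fold was then 0 of 7.

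**Figure D3:**
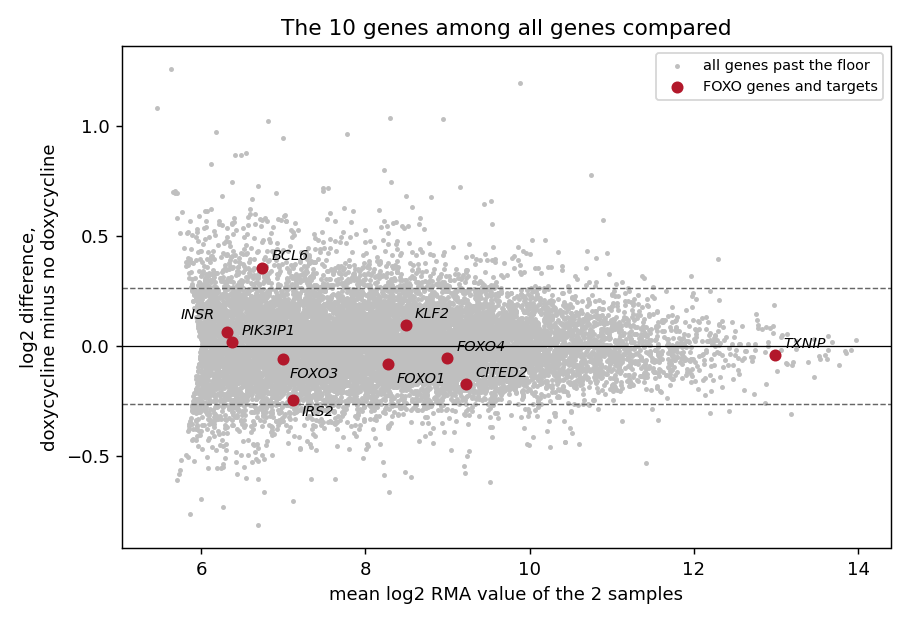
Log2 difference, doxycycline minus no doxycycline (vertical axis), against the mean log2 RMA value of the 2 samples (horizontal axis) for the 13471 genes past the floor (grey), with the 10 FOXO genes and targets in red; dashed lines mark 1.2-fold. Differences are wider among dim genes, and 9 of the 10 red points lie between the dashed lines.

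The other genes of the pathway were described through 8 lists, from which the 10 genes were left out. Of their 158 different genes 149 were measured by a probe set with a single symbol, and 130 passed the floor. With doxycycline 70 of the 130 were higher and 59 lower, against 50.3% and 48.8% of all genes. Their median difference was 0.02. At 1.2-fold, 12 of the 130 were higher and 3 lower, where 6.04% and 4.05% of all genes were as far. Among the lower ones, TRIM63, described below, passed the floor through the control sample alone. These counts describe lists chosen with earlier results known and carry no test. The glucose transporter gene SLC2A3, named here after its value was seen, was 1 of 115 genes past the floor with equal values in both samples.

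At the insulin receptor and PI3K step, differences were small and more often positive than negative. Of 16 past the floor, 13 were higher and 3 lower, with a median of 0.09 against 0.00177 over all genes, of which 50.3% were higher. At least 1.2-fold higher were 2 of the 16, where 6.04% of all genes were. INPP5D, the SHIP1 phosphatase that removes a phosphate from the PI3K product in blood cells, had 8.46 with doxycycline and 8.16 without, differing by 0.30. PIK3CG, the PI3K catalytic subunit gamma, had 10.95 with doxycycline and 10.66 without, differing by 0.29. The adaptor GAB1 differed by 0.20, but by -0.11 at its dimmer probe set. IRS1, the paralogue of IRS2, was lower like it, at 5.82 with doxycycline and 6.07 without, differing by -0.25, and reached the floor in the control sample alone. Genes near its level had a robust SD of 0.27. IGF1R, the IGF1 receptor, differed by 0.05.

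The AKT list was evenly divided, with 10 of 19 higher, 9 lower and a median of 0.00129. Of all genes 50.3% were higher and 48.8% lower, with a median of 0.00177. Past 1.2-fold were 3 of the 19 higher and 0 lower, where 6.04% of all genes were as far higher and 4.05% lower. AKT1 differed by -0.13, at 9.64 with doxycycline and 9.76 without, and AKT2 by -0.14, at 8.70 with doxycycline and 8.84 without. The 3 genes at least 1.2-fold higher were SGK1, a kinase related to AKT that also phosphorylates FOXO3 (0.34), TRIB3, a pseudokinase that binds AKT and is induced by ATF4 (0.27), and RICTOR, the subunit that defines mTORC2 (0.27). PHLPP2, a phosphatase of AKT, differed by 0.22.

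Of 26 regulators and cofactors of the FOXO proteins, 15 were higher and 11 lower, against 50.3% and 48.8% of all genes. Past 1.2-fold were 0 of the 26 in either direction, where 6.04% of all genes were as far higher and 4.05% lower. The median was 0.05. Farthest from 0 were the acetyltransferase gene KAT2B (0.22), PRKAA1, a catalytic subunit of AMPK (0.18), STK4, the MST1 kinase (0.18), and MDM2, a ubiquitin ligase (0.17). The robust SD at their levels was 0.15 for KAT2B and 0.12 for PRKAA1, STK4 and MDM2. Each lay more than 1 such SD above 0, but they were picked as the farthest of the 26, which makes this likely beforehand. The share of all genes as far was not counted. FOXO6 was not analysed here.

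Further FOXO targets went both ways. Of 37 in the list 36 were measured and 26 passed the floor. Of the 26, 16 were higher and 10 lower, against 50.3% and 48.8% of all genes, with a median of 0.04 in the list. At least 1.2-fold higher were 4 of the 26 and at least 1.2-fold lower 2, where 6.04% and 4.05% of all genes were. DDIT4, an inhibitor of mTORC1 that ATF4 also induces, had 9.51 with doxycycline and 8.79 without, differing by 0.72 or 1.65-fold. It was the 1 gene of the list at least 1.5-fold higher, where 0.364% of all genes were. KLF6, a zinc finger factor, had 8.43 with doxycycline and 8.06 without, differing by 0.36. TRIM63, a muscle ubiquitin ligase gene, differed by -0.58 and was 1 of the 2 counted as at least 1.2-fold lower. It reached the floor in the control sample alone, at 5.44 with doxycycline and 6.02 without, so its place in that count rests on the control. CCR7, which encodes a lymph node homing receptor, had 6.41 with doxycycline and 6.85 without, differing by -0.44. Both CCR7 values were within 1 log2 unit of the floor. The robust SD among genes of similar level was 0.28 for TRIM63 and 0.18 for CCR7. Detection calls were not used, so whether TRIM63 or CCR7 was expressed in either culture is not shown.

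Around TXNIP, the MondoA, thioredoxin and arrestin list had 5 of 14 genes higher and 8 lower, with a median of -0.04. For all genes the shares were 50.3% and 48.8%, and the median was 0.00177. ARRDC3, an arrestin domain relative of TXNIP, was higher with doxycycline, at 10.92 against 10.48 without, differing by 0.43 or 1.35-fold. ARRDC3 was the 1 gene of the 14 past 1.2-fold, where 6.04% of all genes were as far higher and 4.05% lower. ARRDC4, the relative that shares control by MondoA with TXNIP, differed by -0.12. MLXIP, the gene of MondoA itself, had 8.48 with doxycycline and 8.74 without, differing by -0.26. MLXIPL, the gene of ChREBP, differed by 0.18, and the thioredoxin gene TXN by -0.14.

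The paralogues and partners of the other members were also mixed, where 50.3% of all genes were higher and 48.8% lower. Of 13 KLF genes other than KLF2, 4 were higher and 9 lower, with a median of -0.05. At least 1.2-fold higher were 2 of the 13 and at least 1.2-fold lower 1, where 6.04% and 4.05% of all genes were. KLF6, described above, differed by 0.36, KLF9 by 0.30 and KLF15 by -0.22. KLF1, the erythroid KLF, differed by -0.28, at 9.38 with doxycycline and 9.66 without. Corepressors and relatives of BCL6 had 2 of 9 higher and 7 lower, with a median of -0.06. Past 1.2-fold were 0 of the 9, where 6.04% of all genes were as far higher and 4.05% lower. Among the 9 were BCORL1 (-0.17), HDAC3 (-0.14), BCOR (-0.11) and ZBTB16 (0.14). CITED paralogues and HIF partners had 7 of 10 higher and 3 lower, with a median of 0.06. At least 1.2-fold higher was 1 of the 10, EPAS1, where 6.04% of all genes were, and at least 1.2-fold lower 0, where 4.05% were. EPAS1, which encodes HIF2A, differed by 0.32, at 7.99 with doxycycline and 7.68 without, HIF1A by 0.13 and ARNT by 0.11. EP300, the gene of p300, for which CITED2 and HIF1A compete, differed by -0.09.

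**Figure D4:**
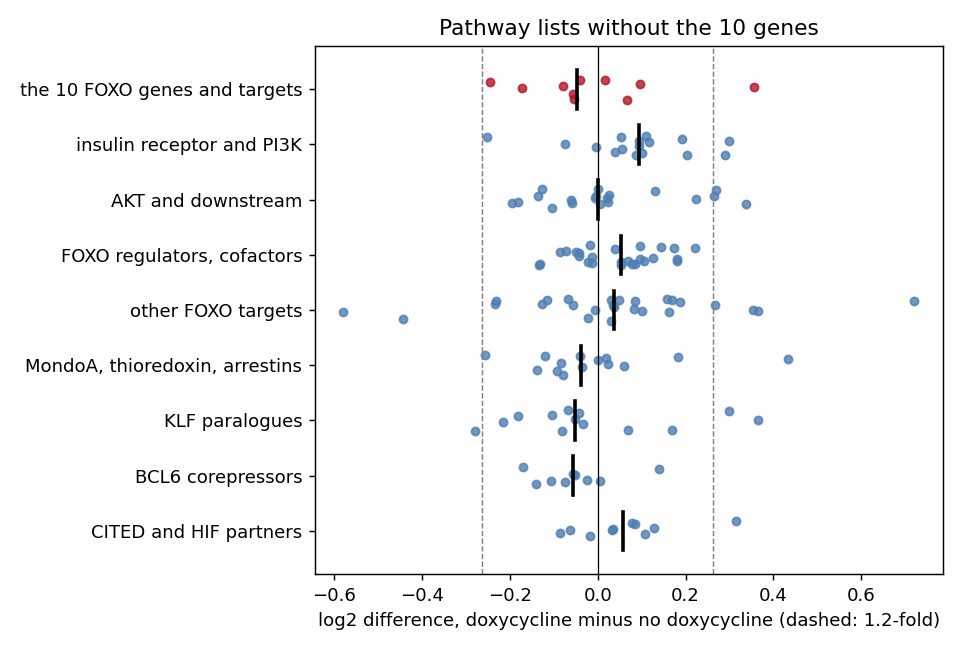
Log2 difference, doxycycline minus no doxycycline (horizontal axis), of the 10 FOXO genes and targets (red) and of the genes past the floor in each of 8 pathway lists without those 10 (blue); black bars are medians and dashed lines mark 1.2-fold. Medians run from -0.06 for the BCL6 corepressors to 0.09 for the insulin receptor and PI3K list, and DDIT4 at 0.72 is the farthest point.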

How the data were processed

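Per the labels' protocols, total RNA was purified on columns, labelled with biotin and hybridised to 1 whole-transcript array per culture. The submitters' processing notes name Affymetrix Expression Console 1.1.1 with RMA as the source of the deposited log2 values. That the scale is log2 follows from RMA and the range of the values, 1.61 to 14.6. RMA compresses differences at low signal and hides any shift common to all genes. Neither the genome build nor the set of arrays normalized together is stated in the sources at hand. The design text names another array than the one the annotation and probe set numbers belong to.

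Of 33297 probe sets, 19460 had 1 gene symbol, 1754 several and 12083 none here; 19429 of the single symbols were updated through Entrez IDs to RefSeq on GRCh38.p14. A gene took its brightest probe set, and genes whose higher value was under 6 were left out. With 1 array per group no test was made, and the number of arrays limits the precision. Sizes of 1.2-fold and 1.5-fold were counted and set beside all genes. Named were all 10 genes, BMI1, up to 4 genes per list with the largest absolute difference, and IRS1, IGF1R, AKT1, AKT2, DDIT4 and ARRDC4 in any case. Some genes in the rule are not reported here. No genes alike in pattern were sought, since 2 samples give 1 difference each. Members, lists and motifs were chosen with earlier results of these data known. The steps were tested on simulated data. The alternatives tried were a mean over probe sets, samples centred on their medians, removal of a loess trend (span 0.3), quantile normalization, and no floor or floors of 5, 7 and 8. Python 3.11.15, numpy 2.4.6, pandas 2.3.3, statsmodels 0.14.6 and matplotlib 3.10.9 were used.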

Additional observations from a re-analysis of the deposited data

How the results depend on the processing

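No paired analysis was possible because each group held 1 sample. Each of the 10 genes kept its sign under centring, trend removal and quantile normalization, with BCL6 between 0.36 and 0.37, IRS2 between -0.25 and -0.23 and CITED2 between -0.18 and -0.16. Averaging over probe sets changed none of the 10, since each had 1 probe set with a single symbol. The exception was FOXO3, at 0.10 when taken from the probe set shared with FOXO3B, an alternative chosen after seeing the data, which gave 5 genes higher in place of 4. Floors of 7 and 8 kept 7 and 5 of the 10 genes. The count at least 1.2-fold higher was then 0 under both, and the count higher was 1 under both. BCL6, INSR and PIK3IP1, all higher with doxycycline, are below these floors. FOXO3 (6.96 with doxycycline, 7.02 without) and IRS2 (6.99 and 7.24) passed the floor of 7 through the control sample alone. The median of the 10 genes ran from -0.06 to -0.01 over the alternatives. List medians, here with the 10 genes included, kept their sign except the AKT list, between -0.00487 and 0.01, and the KLF list, between -0.05 and 0.01. None of the 35 named genes of the lists changed sign under the 4 scaling and probe set alternatives (0 of 35), although GAB1 moved to 0.05 with its probe sets averaged. Dim signal limits BCL6, INSR and PIK3IP1 most.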
